A study of Solanum tuberosum with 5 samples.

Results

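Potato plantlets were followed as they moved from long days (LD) into short days (SD), and the account below describes how 6684 transcript tags changed over the 5 days after that move. The tags were those listed in all 3 libraries of the course, called d0, S2 and S5 after their labels, with a value of 10 TPM or more in at least 1 of them. They were drawn from 27553 distinct tags in the whole series. In these files TPM stands for a tag's count per 1000000 tags counted in its library, so a value was not divided by transcript length.

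All libraries came from plantlets of Solanum tuberosum with the genotype label E26, a name the labels do not explain further. The library d0 was taken after 3 weeks in LD, before any transfer. S2 and S5 were taken after 2 and 5 days in SD, and L2 and L5 after as many further days in LD. Each group was 1 library, and the labels give neither the number of plantlets behind a library nor the hour of harvest. Every comparison is therefore between 2 libraries with no replicate check, and the intervals given are exact 95% counting intervals of a ratio, which cover counting error only. In bulk tissue, fewer cells of a type and less RNA per cell cannot be told apart.

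Day length is a main cue for tuber formation in potato. Leaves sense it through phytochromes and the circadian clock, and in short days a mobile protein of the FT family, known in potato as SP6A, is made in leaves and travels to the stolon tips where tubers form. CONSTANS-like proteins and a second FT-like protein are known to hold SP6A back in long days. The labels do not say which parts of the plantlet were taken, so whether leaves or stolon tips are in the libraries is not known. The deposited files carry tags without gene names, and no potato sequence was used here to match them, so none of these genes, nor the markers of any plantlet tissue, was assigned a tag. Tags are named below by their class of change and a letter.

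The libraries were of similar depth, with recovered totals from 3492458 tags in S5 to 3688120 in L5, and 10 TPM rested on 34.9 to 36.9 counted tags. The 6684 members held 67.6% of the listed TPM in d0, 66.6% in S2 and 67.1% in S5. A further 3649 tags were listed in all 3 libraries of the course but stayed under 10 TPM in each. Another 5578 tags reached 10 TPM in at least 1 library and were missing from 1 or 2 of the others, so they had no course to describe. At the floor, the last tags inside had 8.46, 9.12 and 10.02 TPM, and 4.23, 7.41 and 10.02 TPM, in d0, S2 and S5. The first tags outside had 3.38, 9.98 and 8.30 TPM, and 1.41, 9.98 and 5.44 TPM, in the same order.

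The members moved less in the first 2 days of SD than between day 2 and day 5. A step was called when the log2 ratio of TPM + 1 was at least 1 in size, which is a 2-fold change. From d0 to S2, 551 members rose and 909 fell, or 8.24% and 13.6% of the members. Over all 6887 tags that these libraries shared at 10 TPM or more in 1 of them, the shares were 8.54% higher and 12.6% lower. All but 991 of these shared tags were members, so similar shares were largely given in advance and say little about other tags. From S2 to S5, 1456 members rose and 1407 fell, or 21.8% and 21.1%, against 23.4% and 20.7% of the 7018 tags shared by those libraries. All but 719 of those shared tags were members too. The interquartile range of the log2 ratios was 0.99 for the first step and 1.61 for the second.

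Large changes were also more frequent in the second step. A 4-fold or larger log2 ratio was reached by 46 rising and 110 falling members in the first step, and by 773 rising and 489 falling members in the second. Many members lay close to the limit of a call: 255 had a first step between 0.9 and 1 in size and 242 between 1 and 1.1, and the counts were 250 and 217 for the second step. Members that rose and members that fell were nearly equal in number in the second step, and their balance depended on the scaling. With values rescaled so that each library's listed tags had the same sum, 1283 rose and 1734 fell, and the median log2 ratio moved from -0.07 to -0.29.

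Both steps use the S2 library, so an error in that library alone would move them in opposite ways. Without S2, the ratio of S5 over d0 gave 1629 members higher and 1646 lower, or 24.4% and 24.6%. This balance also depended on the scaling, with 1387 higher and 1872 lower when rescaled to the listed tags (median log2 ratio -0.19, against -0.03 as deposited) and 1731 and 1563 under median-of-ratios factors. Over all 7233 tags shared by those libraries, 25.8% were higher and 24.2% lower. The 4-fold changes over the whole course were 517 rises and 632 falls.

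The steps divided the members into 8 classes of change and a remainder. Of 6684 members, 3628 (54.3%) were called at a step or at both, and 3056 at neither. Late changes, called only between day 2 and day 5, were the most frequent kind with 2168 members, made up of 940 rises and 1228 falls. Early changes, called only in the first 2 days, numbered 765, with 431 rises and 334 falls. Reversing changes numbered 566, of which 481 dipped at day 2 and 85 peaked there. Steady changes, called in the same direction at both steps, were the fewest, with 35 rises and 94 falls.

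**Figure D1:**
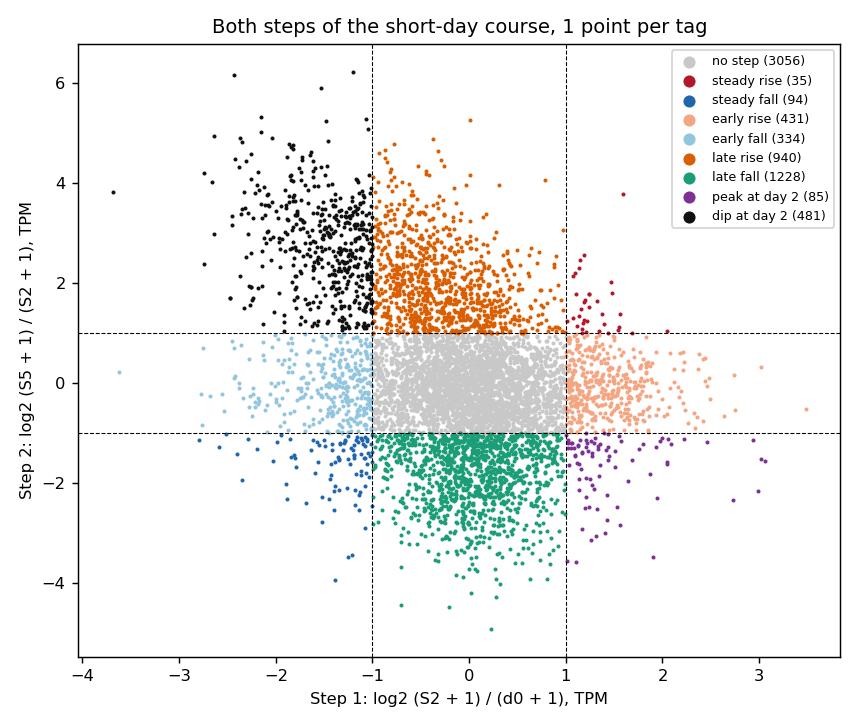
Each point is 1 of the 6684 tags, with the log2 ratio of S2 over d0 on the horizontal axis and that of S5 over S2 on the vertical axis, both from TPM + 1. Dashed lines mark 2-fold changes, colours mark the classes, and the 481 tags that dipped at day 2 fill the upper left while the 85 that peaked there lie at the lower right.

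The same rule applied to the plantlets kept in LD gave another distribution over the classes. The LD course had 6895 tags listed at days 0, 2 and 5 with 10 TPM in 1 library, and shares its d0 library with the SD course. Late rises were 14.1% of the SD course and 4.00% of the LD course, and late falls 18.4% and 6.22%. Early rises were 6.45% of the SD course and 18.2% of the LD course, and early falls 5.00% and 9.21%. Tags that dipped at day 2 were 7.20% of the SD course, or 481 tags, and 1.22% of the LD course, or 84 tags. Peaks at day 2 were 1.27% of the SD course and 0.986% of the LD course.

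The first step held 1460 called members in SD, while in the LD course 1416 tags rose and 887 fell from day 0 to day 2. Among all 7268 tags shared by L2 and d0, 20.3% were higher and 13.6% lower in L2. In the second step the LD course had 456 rises and 665 falls, below the 1456 and 1407 of the SD course. The interquartile range of the log2 ratios in the LD course was 1.41 for the first step and 0.866 for the second, the opposite order to that of the SD course. With 1 library per group no test of this difference can be made.

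**Figure D2:**
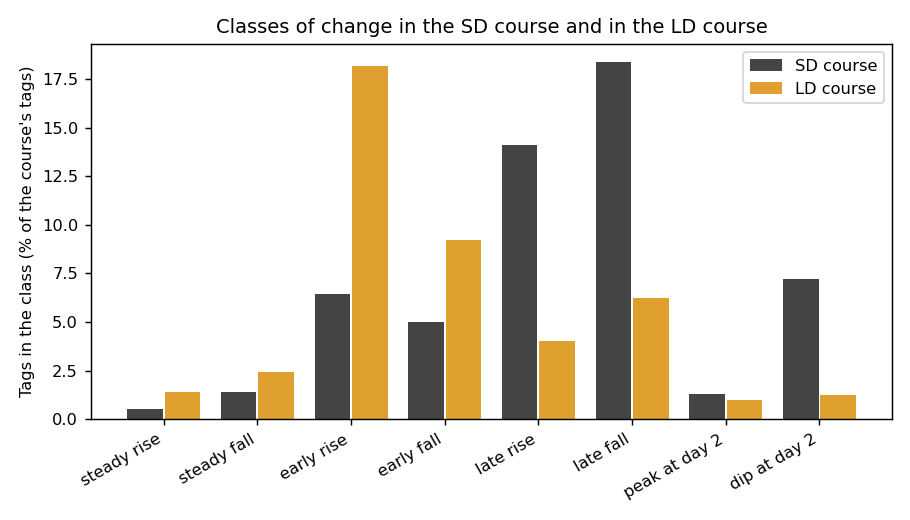
Bars give the share of tags in each class of change, in percent of the tags of the SD course (6684 tags, dark) and of the LD course (6895 tags, light). Late changes and dips at day 2 had the taller bar in the SD course, and early changes had the taller bar in the LD course.

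Late rises took up the largest added share of the tag pool. The 940 tags had a median of 9.58 TPM in d0, 7.70 in S2 and 32.5 in S5. Their sum was 5.06% of the listed TPM in d0, 4.70% in S2 and 15.5% in S5. By day 5, 780 of them stood at least 2-fold above d0, and the other 160 were within 2-fold of it, having first slipped below it at day 2. In 400 of the 940 the second step was 4-fold or larger. The medians in d0 and S2 lay under 10 TPM. A late rise under 10 TPM in both of these libraries became a member only through S5, where it is high. The part of this in the values above was not tested.

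The 3 late rises with the largest second step started near the lowest listed value. Tag A had 0.56 TPM in d0, 0.57 in S2 and 59.3 in S5, a 104-fold rise over S2 with a wide interval of 28.4 to 864, since the S2 value rested on 2 tags. Tag B had 1.41 TPM in d0, 0.86 in S2 and 54.4 in S5, a 63.3-fold rise over S2 (interval 21.4 to 311) from 3 tags in S2. Tag C had 1.69 TPM in d0, 0.57 in S2 and 42.4 in S5, a 74.4-fold rise (interval 20.2 to 619). With 0.1 TPM added in place of 1, the small first step of C was called as a fall and C became a dip. All 3 were near the floor of listing at days 0 and 2 and high at day 5. They were also high in L5, at 131, 41.2 and 36.1 TPM for A, B and C, while L2 held 6.49, 13.8 and 5.08 TPM of them, above the S2 level of each.

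A pair of late rises was among the 5 most abundant members. The second most abundant member by its mean over the course had 1684 TPM in d0, 1836 in S2 and 8369 in S5, a rise of 4.56-fold over S2 (interval 4.44 to 4.68). It had 2858 TPM in L2 and 4914 in L5. The fifth most abundant had 1319 TPM in d0, 1157 in S2 and 6186 in S5, a rise of 5.35-fold over S2 (interval 5.17 to 5.53). It had 1633 TPM in L2 and 3263 in L5, so both tags were higher in S5 than in the LD library of that day.

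Late falls were the largest class. By definition its tags had no called first step. The median of the 1228 tags was 27.6 TPM in d0, 27.1 in S2 and 7.44 in S5. They made up 15.9% of the listed TPM in d0, 16.6% in S2 and 3.94% in S5. At day 5, 1029 of them were at least 2-fold below d0 and 199 were within 2-fold of it. The second step was 4-fold or larger in 446.

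The strongest late falls were abundant tags, so their counting intervals were narrow. Tag A had 275.1 TPM in d0, 322.8 in S2 and 9.74 in S5, which is 33.1-fold below S2 (interval 23.6 to 48.1). Tag B had 524.5 TPM in d0, 453.6 in S2 and 19.5 in S5, 23.3-fold below S2 (interval 18.3 to 30.2). Tag C had 307.8 TPM in d0, 188.5 in S2 and 7.73 in S5, 24.4-fold below S2 (interval 16.6 to 37.3). Each had at least 188.5 TPM at days 0 and 2 and at most 19.5 TPM at day 5. In LD the same tags also fell between the days, with 271.6, 216.6 and 105.2 TPM of A, B and C at L2 and 74.0, 44.7 and 26.8 at L5.

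Early rises were called up by day 2 and by definition had no called second step, so a level kept at day 5 follows in part from the class. The 431 tags had a median of 8.74 TPM in d0, 25.1 in S2 and 23.8 in S5. At day 5, 309 were still at least 2-fold above d0 and 122 had come within 2-fold of it. Their sum was 1.95% of the listed TPM in d0, 5.66% in S2 and 5.30% in S5.

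Tag A of the early rises had 1.41 TPM in d0, 25.95 in S2 and 17.8 in S5, an 18.4-fold rise in the first step (interval 7.61 to 58.1). Tag B had 21.7 TPM in d0, 183.3 in S2 and 229.1 in S5, an 8.45-fold first step (interval 6.66 to 10.8). Tag C had 3.10 TPM in d0, 26.5 in S2 and 18.0 in S5, an 8.56-fold first step (interval 4.57 to 17.7). All were several times above day 0 at both later days. L2 held 20.6, 199.1 and 24.5 TPM of A, B and C, close to the S2 values, and L5 held 49.4, 241.3 and 22.0 TPM.

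Early falls were defined in the same way, downward. The 334 tags had a median of 32.4 TPM in d0, 10.8 in S2 and 11.6 in S5, and 251 remained at least 2-fold below d0 at day 5. They held 5.44% of the listed TPM in d0, 1.94% in S2 and 1.61% in S5. Tag A had 43.1 TPM in d0, 2.57 in S2 and 3.15 in S5, 16.8-fold down in the first step (interval 8.62 to 37.5). Tag B had 187.4 TPM in d0, 26.5 in S2 and 22.6 in S5, 7.07-fold down (interval 5.68 to 8.88). Tag C was the most abundant of the 3, with 811.7 TPM in d0, 118.3 in S2 and 65.6 in S5, 6.86-fold down in the first step (interval 6.19 to 7.62), and rescaled to the listed tags its second log2 step was -1.07, which makes it a steady fall. In S5 all 3 were still between 8.29-fold and 13.7-fold below d0. In L2 they had 8.18, 18.6 and 108.3 TPM, and in L5 they had 8.95, 27.1 and 133.4 TPM, also far below day 0.

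Steady rises were rare. The 35 tags had a median of 5.07 TPM in d0, 12.8 in S2 and 38.1 in S5, and together they held 0.096% of the listed TPM in d0, 0.247% in S2 and 0.561% in S5. Tag A had 0.56 TPM in d0, from 2 tags, 3.71 in S2 and 64.4 in S5, with steps of 6.63-fold (interval 1.49 to 60.02) and 17.4-fold (interval 9.96 to 33.2), so that S5 was 115-fold above d0 (interval 31.3 to 950). The interval of its first step reaches below 2-fold, and with 5 TPM added in place of 1 the first log2 ratio was 0.65 and not called. Tag B had 13.8 TPM in d0, 40.2 in S2 and 142.6 in S5, with steps of 2.91-fold (interval 2.09 to 4.12) and 3.55-fold (interval 2.94 to 4.31). Tag C had 14.9 TPM in d0, 43.05 in S2 and 178.4 in S5, with steps of 2.88-fold (interval 2.10 to 4.02) and 4.14-fold (interval 3.46 to 4.98). B and C ran at nearly the same level on all 3 days of the course. They differed in LD, where B had 45.4 TPM at day 2 and 73.8 at day 5, while C had 191.8 at day 2 and 131.2 at day 5. L2 did not list A, and L5 had 50.4 TPM of it.

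Steady falls were more numerous, with 94 tags at a median of 44.1 TPM in d0, 14.5 in S2 and 3.87 in S5. Their share of the listed TPM was 1.65% in d0, 0.678% in S2 and 0.159% in S5. Tag A had 52.1 TPM in d0, 9.41 in S2 and 1.72 in S5, with steps down of 5.54-fold (interval 3.81 to 8.29) and 5.47-fold (interval 2.27 to 16.0). Tag B had 35.5 TPM in d0, 8.84 in S2 and 1.43 in S5, with steps down of 4.02-fold (interval 2.70 to 6.16) and 6.18-fold (interval 2.38 to 20.3). Tag C had 112.5 TPM in d0, 29.65 in S2 and 5.15 in S5, with steps down of 3.79-fold (interval 3.05 to 4.75) and 5.76-fold (interval 3.47 to 10.1). All 3 had ended lower in SD than in LD, where L5 held 8.41, 23.3 and 37.96 TPM of A, B and C. L2 had 9.03 TPM of A and 23.7 of C and did not list B.

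Reversals were mostly dips. The 481 tags that dipped at day 2 had a median of 14.4 TPM in d0, 4.56 in S2 and 37.8 in S5. At day 5, 292 of them stood at least 2-fold above d0, 189 were within 2-fold of it, and 0 were 2-fold below. Their sum was 4.57% of the listed TPM in d0, 1.55% in S2 and 11.0% in S5. In 52 of the 481 both steps were 4-fold or larger, against 2 of the 85 peaks. The lower quartile of the dips in d0 was 8.74 TPM. A dip under 10 TPM in d0 became a member only through S5, so its S5 level above d0 follows from the floor. The part of this in the day 5 values was not tested.

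The most abundant member of the whole course belonged to the dips. It had 3096 TPM in d0, 1103 in S2 and 9586 in S5, first 2.81-fold down (interval 2.71 to 2.91) and then 8.69-fold up (interval 8.41 to 8.99). In LD it was at 10796 TPM at day 2 and 9349 at day 5, so that only S2 among the later libraries was below day 0. The dips with the largest smaller step were less abundant. Tag A had 63.1 TPM in d0, 3.99 in S2 and 69.9 in S5, 15.8-fold down (interval 9.23 to 29.4) and 17.5-fold up (interval 10.2 to 32.5), and at day 5 its ratio to d0 was 1.11 (interval 0.919 to 1.33). Tag B had 15.2 TPM in d0, 1.43 in S2 and 43.8 in S5, 10.6-fold down (interval 4.30 to 34.2) and 30.6-fold up (interval 12.9 to 96.0). Tag C had 28.75 TPM in d0, 3.71 in S2 and 75.9 in S5, 7.75-fold down (interval 4.34 to 15.1) and 20.5-fold up (interval 11.8 to 39.0). A was back near its starting level, while B stood 2.88-fold above d0 (interval 2.10 to 4.00) and C 2.64-fold above it (interval 2.09 to 3.35). L2 stayed within 2-fold of d0 for all 3, at 46.8, 21.4 and 29.1 TPM of A, B and C.

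Peaks at day 2 were the smaller reversing class. The 85 tags had a median of 9.58 TPM in d0, 27.9 in S2 and 8.30 in S5. At day 5, 66 were back within 2-fold of d0, 5 were above it and 14 below. Tag A had 45.9 TPM in d0, 309.9 in S2 and 60.4 in S5, 6.75-fold up (interval 5.72 to 8.003) and 5.13-fold down (interval 4.42 to 5.97). Tag B had 1.97 TPM in d0, 22.5 in S2 and 4.29 in S5, 11.4-fold up (interval 5.29 to 29.3) and 5.25-fold down (interval 3.00 to 9.81). Tag C had 2.82 TPM in d0, 13.7 in S2 and 2.00 in S5, 4.86-fold up (interval 2.43 to 10.8) and 6.85-fold down (interval 3.07 to 17.9). In LD these 3 tags were also highest at day 2, with 245.7, 20.3 and 8.74 TPM at L2 and 60.5, 1.90 and 2.71 TPM at L5.

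**Figure D3:**
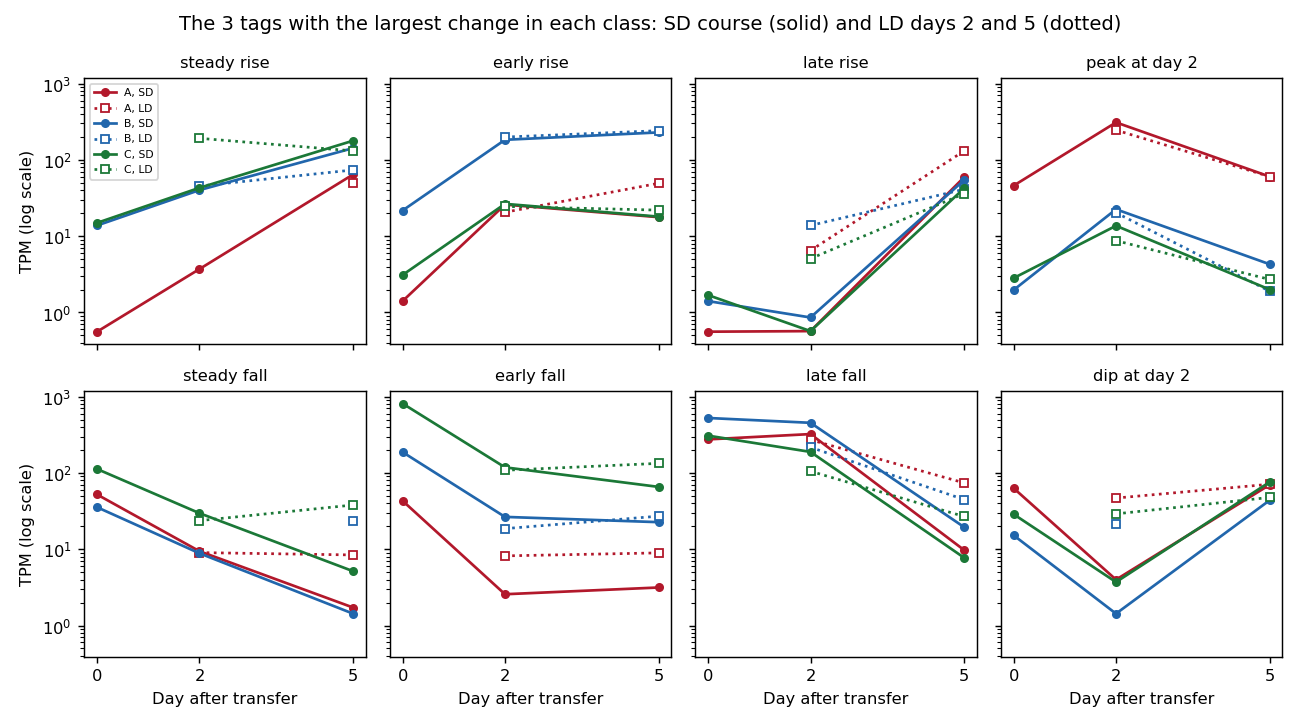
For the 3 tags with the largest change in each class, TPM on a log scale is plotted against the day after transfer, with d0, S2 and S5 joined by solid lines and LD days 2 and 5 joined by dotted lines (a tag missing from an LD library has no square). The late rises start between 0.56 and 1.69 TPM and end between 42.4 and 59.3 TPM in S5, and the 3 peaks at day 2 are lower at day 5 in both photoperiods.

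The remaining 3056 members had no called step, with medians of 21.7 TPM in d0, 22.5 in S2 and 21.5 in S5. Smaller steps in the same direction still added up in some of them. Over the whole course 208 rose and 258 fell by 2-fold or more, and 2590 stayed within 2-fold. The largest rises of this kind had 5.64 TPM in d0, 12.3 in S2 and 24.3 in S5, and 6.48, 12.8 and 25.8 TPM in the same libraries. The largest falls had 47.4 TPM in d0, 23.7 in S2 and 12.03 in S5, and 32.1, 15.7 and 8.02 TPM in the same libraries. Each of these 4 tags stayed under a size of 1 in the log2 ratio of TPM + 1 at both steps, between 0.89 and 0.998. As ratios of the deposited values, 4 of the 8 steps were past 2-fold, from 2.001-fold to 2.17-fold, so the added 1 TPM kept them uncalled. Each of the 4 tags also gained a called step under at least 1 other scaling.

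Some abundant tags without a call also moved by more than counting error. The third most abundant member had 2889 TPM in d0, 5707 in S2 and 2943 in S5, a first ratio of 1.98 (interval 1.93 to 2.02) that fell just short of 2-fold. Its lack of a call depended on the scaling: rescaled to the listed tags, its log2 steps of 0.98 and -0.96 became 1.04 and -1.19, which makes it a peak at day 2, and TMM factors gave a first step of 1.07. It was also higher at day 2 than at day 5 in LD, with 8764 and 4448 TPM. The fourth most abundant member had 2023 TPM in d0, 2801 in S2 and 4019 in S5, and neither L2 nor L5 listed it.

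The LD libraries of days 2 and 5 were not used to choose the classes, and they listed 6222 and 6188 of the members. The change from L2 to L5 shares no library with the SD change over the same days. Of the 832 late rises that both LD libraries listed, 145 (17.4%) were also 2-fold higher in L5 than in L2, 7 (0.841%) were lower and 680 were within 2-fold. Of the 1069 late falls, 436 (40.8%) were lower in L5 than in L2 and 4 (0.374%) were higher. Over all 7345 tags shared by these LD libraries, 6.94% were higher and 8.94% lower. Both late classes thus moved in their own direction in LD more often than the shared tags did, although most of their members did not pass 2-fold there. The same held for the other classes with a called second step. In L5, 32.3% of 31 steady rises and 14.8% of 419 dips were higher than in L2. Of 78 steady falls 20.5% were lower, and of 72 peaks 31.9%.

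Over the 5875 members listed in all 5 libraries, the log2 ratios of S5 over S2 and of L5 over L2 had a Pearson r of 0.60 and a Spearman rho of 0.58 across tags, and tags are no replicates of a condition. The spread was wider in SD, with an interquartile range of 1.61 against 0.847 in LD.

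**Figure D4:**
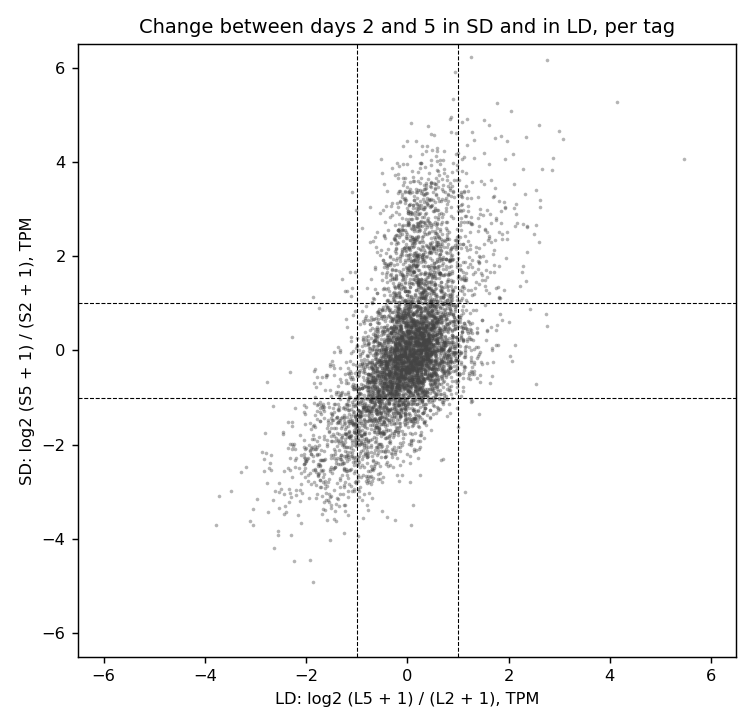
Each point is 1 of the 5875 tags listed in all 5 libraries, with the log2 ratio of L5 over L2 on the horizontal axis and of S5 over S2 on the vertical axis, both from TPM + 1 and drawn to the same range. Dashed lines mark 2-fold changes, and the cloud is taller than it is wide, with interquartile ranges of 1.61 in SD and 0.847 in LD.

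The day on which SD and LD levels lay apart differed between the classes. The SD over LD ratios of each day reuse the SD libraries that chose the classes, so they describe the classes and support nothing about them. In S2, 552 of the 875 late rises listed in L2 (63.1%) were 2-fold lower than in L2 and 2 were higher. Of the 450 dips, 410 (91.1%) were lower and 0 were higher. Over all 7108 tags shared by S2 and L2, 20.3% were lower and 7.47% higher. Late falls lay on the other side, with 268 of 1151 (23.3%) higher in S2 than in L2, 5 lower and 76.3% within 2-fold. Steady falls were mostly close to LD at this time, with 84.9% within 2-fold.

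By day 5 the SD and LD levels of late rises and dips were mostly within 2-fold of each other, as those of early rises were on both days. For late rises 826 of 880 (93.9%) were within 2-fold in S5 and L5, for dips 418 of 439 (95.2%), and for early rises 369 of 398 (92.7%, against 91.0% at day 2). Members without a called step had shares of 90.15% at day 2 and 93.84% at day 5, so the shares of day 5 were not particular to these classes. Among late falls 852 of 1118 (76.2%) were within 2-fold, about the share of day 2, with 220 lower and 46 higher in S5. Early falls and peaks also had similar shares within 2-fold on both days, 82.1% at day 2 and 83.0% at day 5 for early falls, and 79.5% and 80.5% for peaks. Over all 7194 tags shared by S5 and L5, 7.76% were lower and 2.74% higher. Steady falls lay apart from LD mainly at day 5, with 43 of 83 (51.8%) at least 2-fold lower in S5 than in L5 and 44.6% within 2-fold.

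The median levels are given here for both photoperiods, and those of S2 and S5 follow in part from the choice of the classes. Late rises had medians of 7.70 TPM in S2 and 20.3 in L2, and of 32.5 in S5 and 28.6 in L5. For the dips the medians were 4.56 TPM in S2 and 23.4 in L2, and 37.8 in S5 and 32.3 in L5. Late falls had 27.1 TPM in S2 and 18.6 in L2, and 7.44 in S5 and 10.6 in L5. In these 3 classes the median of L2 lay between those of d0 and L5, whereas the S2 median lay below that of d0 in late rises and dips and close to it in late falls. The place of S2 relative to d0 is set or limited by the class. Dips are called down in S2, and late changes have no called first step. Because S2 chose the classes, its distance from L2 describes them and supports nothing about them. Early rises, by contrast, had 25.1 TPM in S2 and 22.6 in L2, and 23.8 in S5 and 24.5 in L5.

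**Figure D5:**
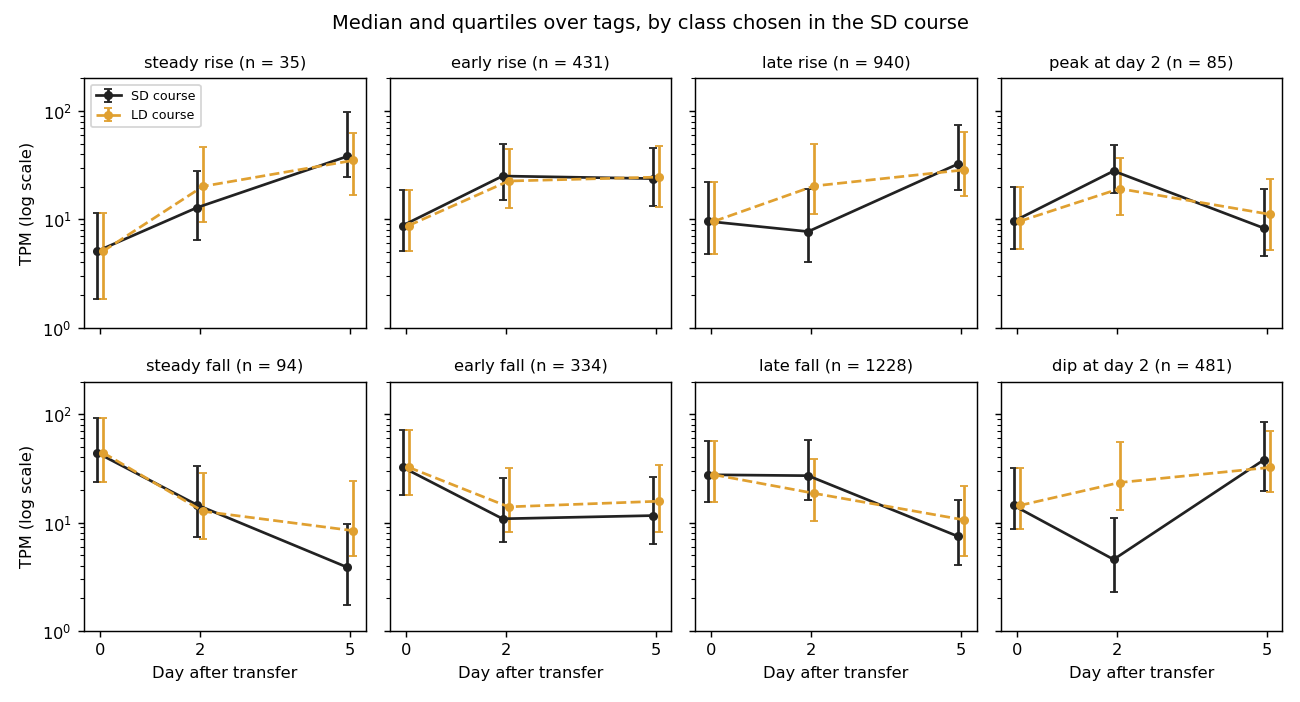
Points are the median TPM (log scale) over the tags of each class and bars run between the quartiles, for the SD course (solid) and, over the tags that LD lists, for the LD course (dashed), against the day after transfer. In the late-rise and dip panels S2 lies at 7.70 and 4.56 TPM while L2 lies at 20.3 and 23.4 TPM, and both photoperiods are close at day 5. The classes were chosen on the SD course.

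The share called at the second step was highest among the least abundant members and varied little above them. Among members with a mean of 10 to 20 TPM over the course, 40.0% were called at the second step, and the share was 39.8% from 20 to 50 TPM, 42.1% from 50 to 100 TPM, 41.8% from 100 to 500 TPM and 38.5% of the 91 members above that. Below 10 TPM it was 55.2% of 1105 members, where late rises alone were 23.5%. At the first step the share was 27.5% below 10 TPM, between 19.0% and 21.7% in the bins from 10 to 500 TPM, and 30.8% of the 91 members above that. These members had to reach 10 TPM in at least 1 library, and the part of that floor in the larger share at low means was not tested.

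Base composition differed between some of the rising and falling classes. Of the 17 bases next to the CATG site, G and C made up 36.9% on average over all members. The mean was 31.3% in steady rises, 33.9% in late rises and 33.0% in peaks at day 2, against 40.7% in steady falls and 41.2% in early falls. Late falls had 37.2%, early rises 37.3% and dips 36.4%. Among the 1306 members with at most 4 G or C bases, 32.5% were higher and 19.8% lower in S5 than in d0. Among the 929 with 9 or more, 15.9% were higher and 33.5% lower. The LD course showed a similar difference in its early classes, with means of 33.7% in rises and 41.6% in falls. Those early steps share the d0 library with the SD course. The LD late classes, whose called step does not use d0, ran the other way, with 38.3% in rises and 34.6% in falls. The part of base composition in these results was not tested.

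Few members differed from another member by only 1 base. In all, 37 pairs of members differed by 1 base within the 17, involving 72 members, and 24 of these pairs fell in the same class while 1 pair was called in opposite ways at the second step. The members stood in the same order in all 3 files, and neighbours in that order were of the same class in 26.8% of cases, against 27.5% for any pair of members.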

How the data were processed

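Per the labels' protocols, tag libraries of polyadenylated plantlet RNA were prepared with Illumina's Gene Expression Sample Prep Kit. The value of each 21-base tag is in a column headed TPM, per the file headers. The authors' values are of the RPM kind, scaled to 1000000 reads of the library: in every library they were whole multiples of 1 step within 0.006 TPM, with 3 exceptions in S2, and that step gave the library totals. No source used here gives the aligner, the reference or the filters.

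Steps were log2 ratios of TPM + 1, which understate changes of low tags; folds in the text are ratios of deposited values. A tag missing from a library was not treated as 0. Counting intervals are Clopper-Pearson intervals conditional on the sum of both counts (scipy 1.17.1). With 1 library per group no test between groups was made and no p-value computed. The classing was tested on simulated data that held counting error only, with changes planted only in the more abundant tags. That test has no bearing on differences between libraries of the same group. Alternatives were other scalings, pseudocounts of 0.1 and 5 TPM, no floor or 50 TPM, calls limited by the counting interval, and tags listed in all 5 libraries.

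Members, classes and comparisons were chosen with earlier results of these data known. Named tags are the 3 with the largest change per class (steady and reversing by the smaller step), the 2 largest uncalled drifts each way and the 5 most abundant. The gene lists planned for the case of a matching reference were not evaluated.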

Additional observations from a re-analysis of the deposited data

Results flagged for a closer look

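Between days 2 and 5, 10 members rose 2-fold or more in SD while falling 2-fold or more in LD, and 6 fell in SD while rising in LD, out of 5875 members listed in all 5 libraries. Such opposite moves were rare: of the same members, 362 (6.16%) rose and 566 (9.63%) fell by 2-fold or more in LD. These counts were singled out because the photoperiods moved in opposite ways, and with 1 library behind each value the difference was not tested. The tag farthest apart on the first side had a log2 ratio of 3.36 in SD, with 1.14 TPM in S2 and 20.9 in S5, against 11.6 in L2 and 4.88 in L5. The next had a log2 ratio of 2.97 in SD, with 24.5 TPM in S2 and 199.3 in S5, against 165.3 in L2 and 81.3 in L5. On the second side, a tag had a log2 ratio of -3.00 in SD, with 178.8 TPM in S2 and 21.5 in S5, against 131.7 in L2 and 290.1 in L5. The next had -1.35 in SD, with 8.84 TPM in S2 and 2.86 in S5, against 1.41 in L2 and 5.42 in L5. For the first 2 tags the LD fall was barely past 2-fold, at log2 ratios of -1.10 and -1.01. On the second side the LD rises were also small, at log2 ratios of 1.13 and 1.41, the latter from a low value in L2.

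Outside the members, 95 tags had 10 TPM or more in both SD libraries and were listed in no LD library. These tags belonged to no class, but were counted among the 7018 tags shared by S2 and S5. Their medians were 39.4 TPM in S2 and 39.8 in S5, and the highest had 2449 TPM in S2. In the opposite direction, 81 tags had 10 TPM or more in all 3 LD libraries and were listed in neither SD library. The counts of 95 and 81 rest on unlike numbers of libraries and cannot be compared directly. Missing listings were common: of 12262 tags with 10 TPM or more in at least 1 library of the SD course, 5578 were not listed in all 3. A missing listing is therefore not read here as absent expression.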

How the results depend on the processing

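Of 126 recomputed counts of steps and classes, 103 stayed within 1.5 times the reported count and 23 did not. TMM, median-of-ratios and listed-total scaling, a pseudocount of 0.1 TPM, the counting interval and tags listed in all 5 libraries moved none of them that far. A floor of 50 TPM, under which fewer tags are counted, gave 152 rises and 341 falls in the first step, 531 and 458 in the second, and, added after the data had been seen, 587 and 549 over the whole course. Its classes held 13 steady rises, 39 steady falls, 119 early rises, 112 early falls, 328 late rises, 399 late falls, 20 peaks and 190 dips. A pseudocount of 5 TPM gave 319 rises and 520 falls in the first step, 8 steady rises, 39 steady falls, 265 early rises, 46 peaks and 226 dips, and with no floor there were 552 early falls and 131 peaks. A larger pseudocount shrinks the ratios of low tags by construction. Of 330 recomputed log2 steps of named tags, 42 left their counting interval and 0 changed direction among called steps. No paired analysis was possible because each group has 1 library. Class counts cannot be had without S2, and leaving out any other library removes a step.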
